A study of Mus musculus with 2 samples.

Results

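The tripartite motif (TRIM) genes encode ubiquitin ligases, most of which join a RING finger, B-boxes and a coiled coil to a variable C-terminal domain that picks the target. Here they were taken as all protein-coding mouse genes whose symbol is Trim followed by digits and an optional letter, a rule on names that uses no measured value. It gave 68 genes of the 22028 protein-coding and 55536 annotated genes. Many TRIM proteins are induced by interferon, and they act in viral restriction, in nucleic acid sensing and in the control of Toll-like receptor signalling. Others belong to other tissues, such as the MuRF ligases of muscle, or work in the nucleus as chromatin corepressors.

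Macrophages grown from the bone marrow of C57BL/6J mice were fractionated, and the RNA of the nucleoplasm, which the labels also call nuclear, was sequenced after removal of ribosomal RNA. All cells had received 100 ng/ml lipid A, the endotoxin part that Toll-like receptor 4 senses, for 12 h, then 12 h without it, then 100 ng/ml lipid A again for 50 min. This was 1 group of 2 libraries, labelled biological replicates 1 and 2, made from 500 ng and 1 µg of RNA. The age and sex of the animals were not collected, both libraries carry the same donor entry, and no separate cultures are named, so the spread between them may be technical and cannot be told apart from RNA input.

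No untreated or singly treated cells were analysed here, so levels are described within this state and are no response to lipid A. Annotated genes held 20612078 counts in replicate 1 and 22772081 in replicate 2, and a gene at 0 could hold up to 3 counts, which is 0.146 and 0.132 CPM (depth-scaled counts, counting error only). The 6 macrophage markers lay between 42.6 TPM (transcripts scaled to a fixed total, a level per length) for Itgam and 1010 TPM for Lyz2. None of 23 markers of other cell types exceeded 0.690 TPM (Pecam1), and 12 of them were at 0 in both libraries. In bulk RNA, fewer cells with a transcript and less transcript per cell cannot be told apart.

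The family was led by interferon-inducible and antiviral members. Of the 68 genes, 44 (64.7%) were detected at 10 or more counts in both libraries, against 50.4% of all protein-coding genes, and 14 were at 0 in both. Over the 46 members at 10 or more counts in the libraries together, the median level was 3.69 TPM, close to the 3.59 TPM of the 12140 protein-coding genes that passed the same minimum. At the upper end, 8 members (11.8% of the 68, against 5.51% of all protein-coding genes) exceeded 28.7 TPM, the 90 percentile of those protein-coding genes, and all 8 came from the list of 17 interferon-inducible or antiviral members. That list was chosen with earlier results of these data known, and its count was added after the data were seen. The count and the medians of lists are therefore descriptions and no tests. The median of that list's 16 measured genes was 27.8 TPM, against 1.39 TPM in the list of 13 members with other roles in innate signalling, where none of the 10 measured genes passed that level. The 8 were Trim30a, Trim30d, Trim25, Trim12a, Trim26, Trim34a, Trim30c and Trim21. Just below the threshold stood Trim35 at 26.9 TPM, and just above it Trim21 at 30.01 TPM. In replicate 1 alone 6 members passed the 90 percentile, and in replicate 2 alone 9 did.

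**Figure D1:**
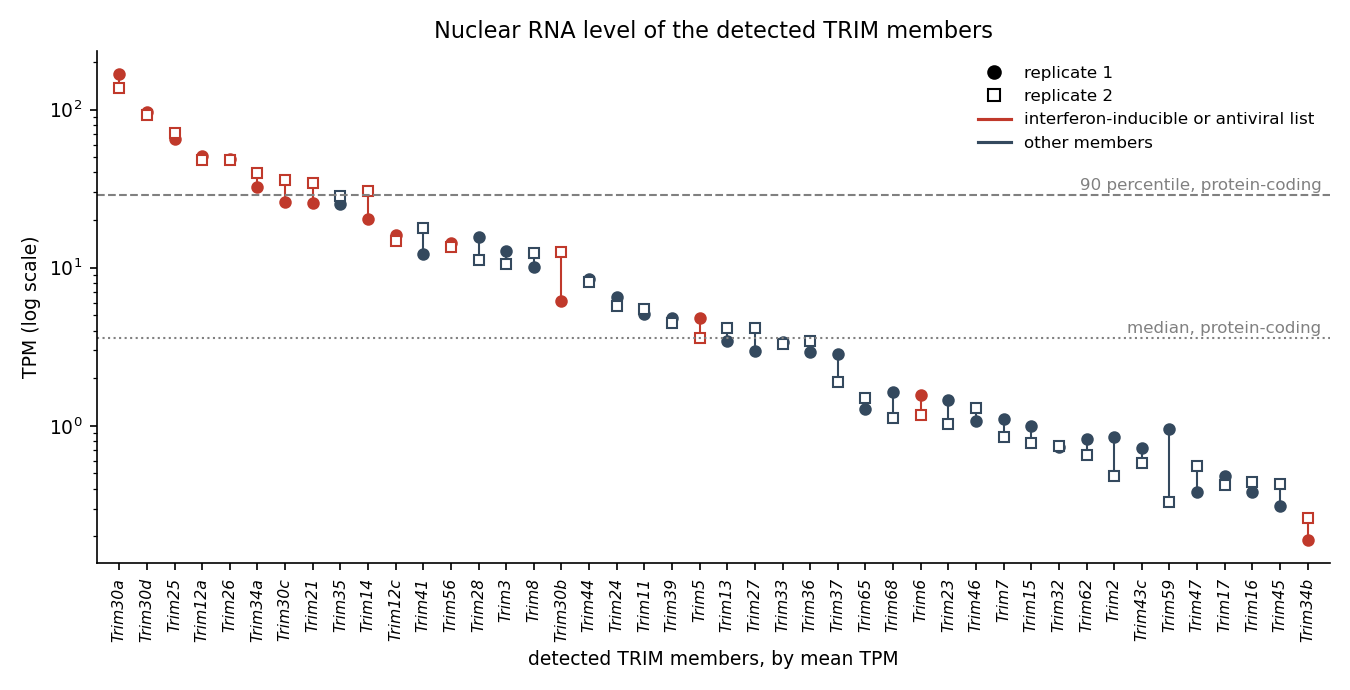
TPM of the 44 detected members on a log scale, ordered by mean, with filled circles for replicate 1 and open squares for replicate 2; red marks the interferon-inducible or antiviral list, and lines mark the median (3.59 TPM) and 90 percentile (28.7 TPM) of protein-coding genes. The red members fill the left end from Trim30a to Trim21, while Trim6 and Trim34b lie far below them.

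Trim30a, which limits Toll-like receptor signalling by promoting the loss of TAB2 and TAB3, had the highest level of the family. Its level was 168 TPM in replicate 1 and 138 TPM in replicate 2 (153 ± 21.2, SD, n = 2), from 18556 and 15158 counts. Its neighbour and close relative Trim30d followed with 96.2 and 92.6 TPM (94.4 ± 2.55, SD, n = 2). Both libraries placed these genes in the same order, and the values of the pair did not overlap.

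Trim25, the ligase that adds ubiquitin to the RNA sensor RIG-I, came next with 64.8 and 71.5 TPM (68.1 ± 4.76, SD, n = 2). Trim12a, one of the mouse counterparts of the human retroviral restriction factor TRIM5, stood at 50.6 and 48.0 TPM (49.3 ± 1.85, SD, n = 2). Trim26, a regulator of interferon induction in the major histocompatibility complex region, stood at 49.0 and 48.0 TPM (48.5 ± 0.707, SD, n = 2). The ranges of Trim12a and Trim26 overlapped, so their order is not resolved, whereas Trim25 lay above both in each library.

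Trim34a, an interferon-inducible gene beside Trim6, had 32.3 and 39.8 TPM. Trim30c had 26.1 and 36.0 TPM. Trim21, a cytosolic antibody receptor that marks antibody-coated viruses for degradation, had 25.8 and 34.3 TPM. These values overlapped, and replicate 1 lay below the 28.7 TPM level for Trim30c and Trim21. At the other end of the interferon list, Trim69 had 4 and 7 counts, and Trim38 was at 0 in both libraries.

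Of the next members, Trim35 had 25.4 and 28.5 TPM, and Trim14, an adaptor on mitochondria in antiviral signalling, had 20.5 and 30.6 TPM. Trim12c had 16.2 and 14.8 TPM, Trim41 had 12.2 and 17.8 TPM, and Trim56, a ligase of antiviral signalling, had 14.3 and 13.4 TPM. Among the 14 neighbouring pairs of the 15 highest members, 5 had values that did not overlap: Trim30a over Trim30d, Trim30d over Trim25, Trim25 over Trim12a, Trim26 over Trim34a and Trim14 over Trim12c. Over all 43 neighbouring pairs of detected members, 12 did not overlap. Trim41 lies across the opposite strand of Rack1 (1222 and 1197 counts) and Trim14 across that of Nans (129 and 188 counts), and the labels and headers do not say if counting used the strand, so these levels are uncertain.

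A large share of the family's RNA came from 1 stretch of chromosome 7. There 10 members lie side by side at chr7:104218793-104507849 (mm10), 289 kb with no other protein-coding gene between them. Their summed level was 402 of the family's 706 TPM in replicate 1 and 386 of 717 TPM in replicate 2, or 56.9% and 53.9%. In counts, which do not correct for length, the block held 53.2% and 49.6% of the family. Trim30a alone held 27.5% and 21.9% of the family's counts, and without it the block's mean share was 43.2% of the remaining TPM. All 10 genes were detected, and 5 passed the 90 percentile.

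The levels inside the block spanned a wide range. In order along the chromosome, Trim6 (chr7:104218793-104235152, plus strand), which makes unanchored ubiquitin chains in interferon signalling, had 1.57 and 1.17 TPM. Trim34a followed at chr7:104244457-104262234 with the values above, and then Trim5 with 4.83 and 3.59 TPM and Trim12a. Trim34b had 0.190 and 0.260 TPM, from 10 and 14 counts. Next came Trim12c, then Trim30b with 6.20 and 12.5 TPM, then Trim30c, Trim30a (chr7:104409025-104465193, minus strand) and Trim30d (chr7:104470014-104507849, minus strand). Trim30a and Trim30d close the block and held its highest values, while Trim34b was lowest in both libraries.

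**Figure D2:**
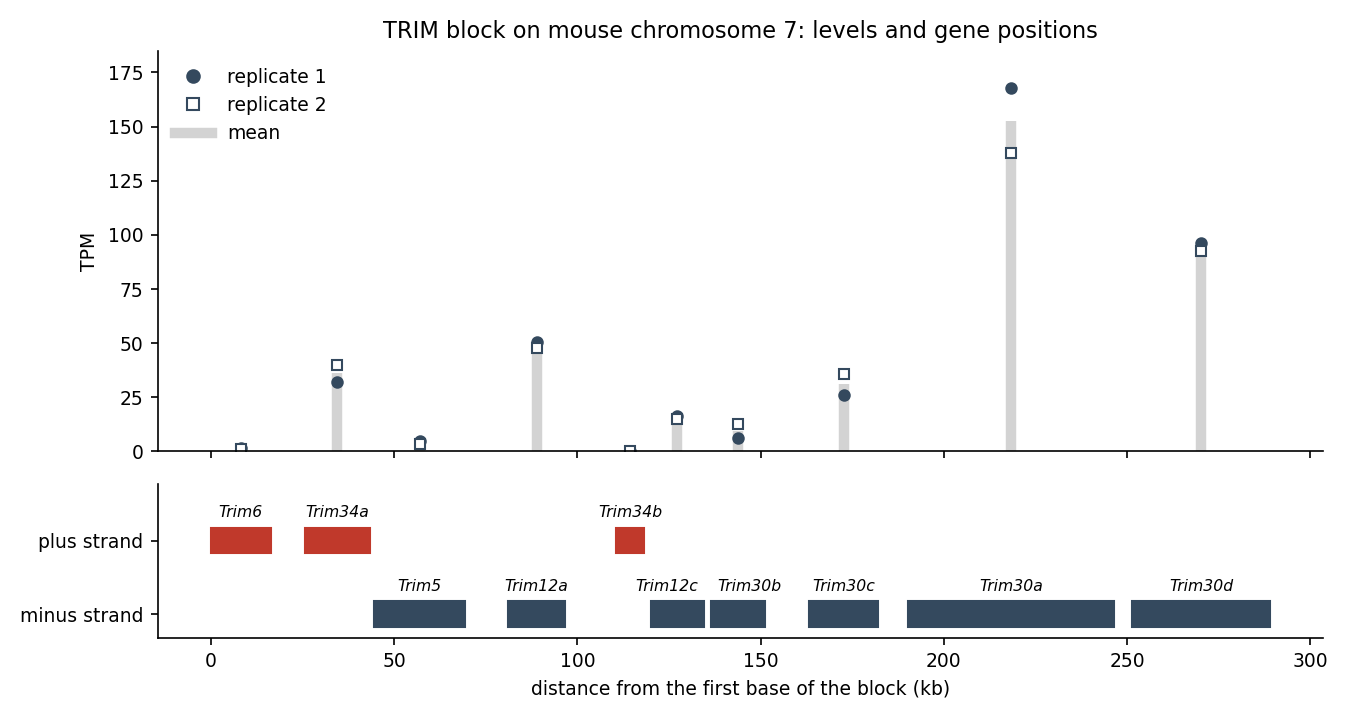
TPM of the 10 adjacent members against distance in kb from the first base of the block (points by replicate, grey lines for means), above the extent of each gene on its strand. Levels run from below 1 TPM at Trim34b to 153 TPM at Trim30a.

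Several of these genes are near-identical copies, and reads that fit more than 1 of them were divided by the authors' estimate. Coding sequences of Trim34a and Trim34b are 98.2% identical, and their levels were 36.0 and 0.225 TPM. Of the 50-base words in the Trim34a transcript, 62.2% also occur in other genes, and 60.9% of those of Trim34b do. Trim5 and Trim12a are 97.1% identical over 891 aligned coding bases, and Trim5 and Trim12c 96.6% identical over 1491. In Trim5, Trim12c and Trim12a, 38.4%, 34.4% and 31.2% of words occur elsewhere. Trim30a and Trim30d are less alike, at 90.2%. Of their words, 6.53% and 15.4% occur in other genes, as do 0.660% of those of Trim30c. By shared sequence, the levels of Trim34a, Trim34b, Trim5, Trim12a and Trim12c are therefore the least certain of the block as single values. Between the index-based and gene-level TPM, the ratio was highest in Trim34b (2.59 and 1.20), Trim30b (1.26 and 0.486) and Trim6 (1.21 and 0.696). The other genes of the block had 0.583 to 0.779 in replicate 1 and 0.282 to 0.353 in replicate 2. Medians over protein-coding genes were 0.671 and 0.316, so the levels of Trim30b and Trim6 are uncertain too. Trim30d also overlaps the pseudogene Gm16464 on its own strand (491 and 657 counts). Of the 46 measured members, 22 shared no 50-base word with any other gene, and 13 shared over 5%.

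The promoters of the highest members were read for the core of the interferon-stimulated response element (ISRE), the sequence that interferon-activated STAT complexes and interferon regulatory factors bind. The core was taken as GAAA, any 2 bases, GAAA on either strand, so that its reverse complement reads TTTC, any 2 bases, TTTC, and overlapping matches count as 1 member. Windows of 300 bases, 250 before to 50 after the start, come from RefSeq (GRCm38.p6, the assembly of mm10), which has them for 53 of the 68 members. The core occurred in 9 of these 53 (17.0%): Trim30a, Trim30d, Trim12a, Trim26, Trim34a, Trim21, Trim12c, Trim5 and Trim2. Of all 27025 genes with a window, 3.99% hold it, as do 3.44% of all windows.

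These RefSeq windows show which copies in the block hold the core letters, and where. The stretches below run 5′ to 3′ on the gene's strand, with the GAAA or TTTC pieces of the core in capitals. The last 60 bases before the start are given for Trim30a (chr7:104465194-104465253), Trim30d (chr7:104507850-104507909), Trim30c (chr7:104400779-104400838), Trim30b (chr7:104358647-104358706), Trim12c (chr7:104353350-104353409) and Trim5 (chr7:104288107-104288166), all on the minus strand, because these relatives lie side by side and differ in level.
Trim30a: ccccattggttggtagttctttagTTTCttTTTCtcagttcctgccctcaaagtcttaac
Trim30d: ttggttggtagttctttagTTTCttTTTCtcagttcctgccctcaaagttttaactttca
Trim30c: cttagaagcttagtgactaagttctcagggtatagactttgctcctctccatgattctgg
Trim30b: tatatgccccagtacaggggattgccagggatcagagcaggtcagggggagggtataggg
Trim12c: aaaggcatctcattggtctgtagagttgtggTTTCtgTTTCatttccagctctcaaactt
Trim5: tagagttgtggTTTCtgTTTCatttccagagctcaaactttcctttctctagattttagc

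In Trim30a and Trim30d the core begins 36 and 41 bases before the start, inside an identical run of 118 bases. Trim30c and Trim30b have no match in their windows, although Trim30c has one when the spacer may be 1 to 3 bases, and the longest runs they share with the Trim30a window are 32 and 8 bases. The RefSeq start of Trim30b lies 11238 bases downstream of the GENCODE one, so its window is that of an inner start. In Trim12c and Trim5 the core begins 29 and 49 bases before the start. Trim5 at 4.21 TPM and Trim12c at 15.5 TPM thus carry the same core letters as Trim12a at 49.3 TPM, and the windows of Trim5 and Trim12a share an identical run of 241 bases.

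In 4 members the only match lies after the RefSeq start, at bases 10 to 19 in Trim12a and Trim34a, from base 13 in Trim21 and at bases 28 to 37 of an inner start in Trim2. Trim30a has a further match at bases 2 to 11 of an inner start. The RefSeq start of Trim12a lies 29 bases upstream of the GENCODE one. The stretches are 30 bases around the match in Trim12a (chr7:104315464-104315493, minus strand), Trim34a (chr7:104244459-104244488, plus strand) and Trim21 (chr7:102565448-102565477, minus strand), and 60 bases in Trim26 (chr17:36836964-36837023, plus strand), where the match begins 160 bases before the start. They are shown because Trim21 and Trim26 each hold a pair of overlapping matches.
Trim12a: agttgtggTTTCtgTTTCatttccagagct
Trim34a: gtttggagTTTCagTTTCttttctctgcag
Trim21: tctgagagGAAActGAAAgtGAAAtttgga
Trim26: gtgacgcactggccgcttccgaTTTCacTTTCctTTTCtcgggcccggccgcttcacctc

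The median level was higher among members with the core than among those without it. Of the 9 with the core, 6 passed the 90 percentile, with a median of 36.0 TPM and a range from 0.665 (Trim2) to 153 TPM. Of the 44 without it, 2 passed (Trim25 and Trim30c), with a median of 0.420 TPM. These 44 include members under the count minimum. Among measured members with a window, all 9 with the core remain, and 26 are without it, with a median of 1.38 TPM and 7.69% above the 90 percentile. The 15 members without a window were not read for the core. Among them are Trim35 (26.9 TPM), Trim14 of the interferon list (25.5 TPM), Trim3 and Trim8. Over the measured protein-coding genes with a window, 22.4% of those with the core and 9.72% of those without it passed the same level. The members are not independent, since 7 of the 9 lie on chromosome 7, 6 of them in the block, and several windows are near-copies. The Trim2 match belongs to an inner start 94039 bases into the gene. With only the 250 bases before the start, 5 members held the core (9.43%, against 3.46% of all genes). A match says only that these letters are in the window.

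**Figure D3:**
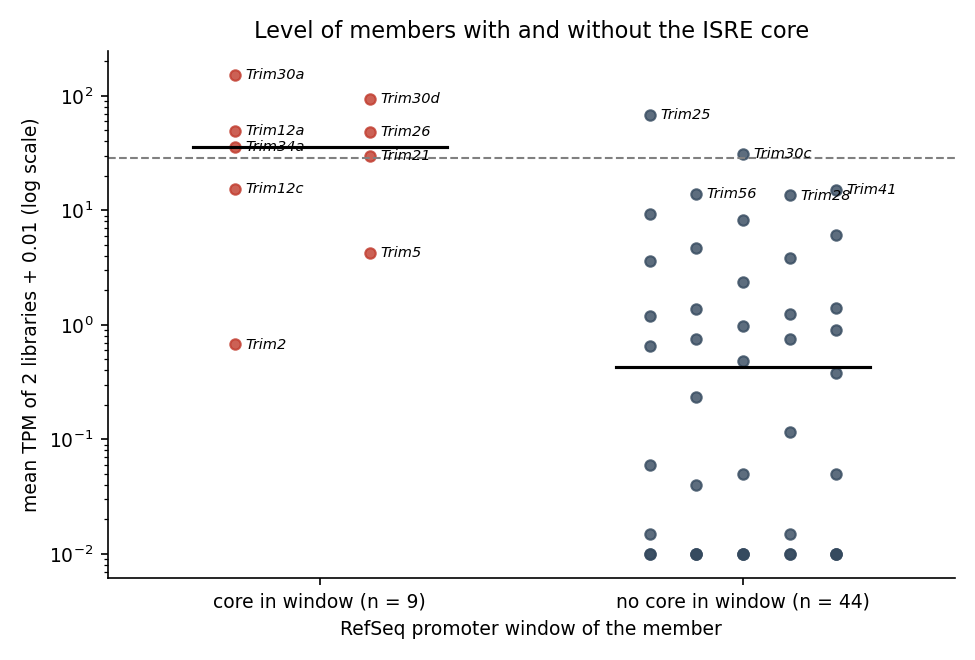
Mean TPM of both libraries plus 0.01 on a log scale for the 53 members with a RefSeq window, split by whether the window holds the ISRE core; bars are medians and the dashed line is the 90 percentile of protein-coding genes (28.7 TPM). Among the 9 with the core 6 lie above the line, and Trim25 and Trim30c do so among the 44 without it.

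Members with other known roles lay lower. In innate signalling, Trim8, which activates the kinase TAK1, had 10.1 and 12.3 TPM. Trim44, a member without a RING finger, had 8.47 and 8.08 TPM. Trim13, a ligase of the endoplasmic reticulum membrane, had 3.42 and 4.18 TPM, and it overlaps Dleu2 on the opposite strand (3896 and 4069 counts). Of this list of 13, 10 were detected, 3 were above the protein-coding median of 3.59 TPM, and Trim31 and Trim40 were at 0 in both libraries.

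The nuclear corepressors of the PHD-bromodomain group were of middle level. Trim28 (KAP1), which silences repeats together with KRAB zinc finger proteins, had 15.7 and 11.2 TPM. Trim24, a nuclear receptor cofactor, had 6.51 and 5.73 TPM. Trim33, a regulator of SMAD signalling, had 3.40 and 3.28 TPM. The fourth, Trim66, had 3 and 9 counts. All 3 detected members lay within the range of the 9 measured partners of Trim28, which ran from 2.56 to 48.3 TPM. Of those partners the highest were the remodeller Chd4 (50.4 and 46.2 TPM) and the deacetylase Hdac1 (41.8 and 34.5 TPM).

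In the NHL-repeat group, Trim3 had 12.7 and 10.6 TPM, Trim32 had 0.730 and 0.750 TPM and Trim2 had 0.850 and 0.480 TPM, while the stem cell factor Trim71 was at 0. Trim39, in the major histocompatibility complex region with Trim26, had 4.83 and 4.5 TPM, and Trim15 there had 1.00 and 0.780 TPM. The other 3 members of that region, Trim10, Trim31 and Trim40, were at 0 in both libraries. That cluster therefore held 1 gene of high level and 3 with no count.

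Members of other tissues lay below the protein-coding median of 3.59 TPM or were at 0. Of the 4 muscle members none was detected: Trim54, Trim55 and Trim63 were at 0, and Trim72 had 5 counts in replicate 1 and 0 in replicate 2. The erythroid members Trim10 and Trim58 were at 0. Among the 4 neuronal members, Trim46 had 1.07 and 1.29 TPM, Trim17 had 0.480 and 0.420 TPM, and Trim9 and Trim67 had at most 2 counts. Trim17 (45 and 49 counts) overlaps Hist3h2a on its own strand (318 and 649 counts). Trim46 (64 and 94 counts) overlaps Krtcap2 on the opposite strand (72 and 140 counts), so both levels are uncertain. Of the 9 germline or embryonic members, Trim36 had 2.95 and 3.46 TPM, Trim43c had 0.720 and 0.580 TPM, and Trim43a had 2 and 4 counts. Trim43c lies opposite 9330159M07Rik (279 and 310 counts), and 59.3% of its 50-base words occur in other genes, so its level is uncertain. The remaining 6 of these were at 4 counts or fewer in each library. The 11 members in no list ran from 0 in both libraries (Trim52 and Trim80) to the 26.9 TPM of Trim35, and 8 of them were detected. Over the whole family, 22 members missed the minimum of 10 counts, and the 8 of these that were not at 0 in both libraries had at most 7 counts over the libraries together. In the index-based transcript table some of them held counts: Trim67 165 and 82, Trim52 106 and 165, Trim63 88 and 60, Trim9 59 and 24, and Trim71 39 and 27. Likewise Trim43b had 67 and 38 there, Trim50 28 and 17, and the erythroid Trim58 15 and 9. Trim54 and Trim10 stayed at 0 there, and Trim55 had 1 and 0 counts. The absence or near absence of Trim67, Trim52, Trim63, Trim9, Trim71, Trim43b, Trim50 and Trim58 thus depends on the table used.

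Between the libraries no member passed the test, a two-sided exact binomial test on counts with Benjamini-Hochberg adjustment over all 16140 genes measured and a log2 ratio of at least 1 in either direction. It called 0 of 46 members, against 6.65% of all genes tested (4.63% higher and 2.01% lower in replicate 2) and 4.14% of protein-coding genes. At 100 or more counts in both libraries it called 0 of 31 members, against 1.99% of 8641 genes. At an unadjusted p under 0.05 there were 21 members, where 45% of all genes had such a p. An edgeR exact test with a dispersion of 0.01 or 0.04 also called 0, where 4.6% and 1.21% of all genes were called. The index-based transcript table gave 1, Trim69, where 9.26% of all genes were called. These p-values cover counting error only and compare 2 libraries, not conditions. Without the ratio limit, 18 members (39.1%) had an adjusted p under 0.05, against 38.8% of all genes and 42.2% of protein-coding genes. Of the 18, 10 were higher and 8 lower in replicate 2. This count fell to 1 member (Trim30b) by the edgeR exact test with a dispersion of 0.01 and to 0 with 0.04. The edgeR share of all genes at that limit is not given here, so the drop is no result about the members. The median log2 ratio of replicate 2 over replicate 1 was 0.04, with 25 members above 0 and 21 below, beside 0.01 over all genes. With libraries scaled by their totals it was -0.03, with 20 above and 26 below, beside -0.07 over all genes.

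Trim30b differed most among the members with an adjusted p under 0.05. It had 692 and 1422 counts, a log2 ratio of 0.97 (95% interval 0.84 to 1.11) and an adjusted p of 2.95e-49 by the exact binomial test. By the edgeR exact test its adjusted p was 0.000359 with a dispersion of 0.01 and 0.477 with 0.04. Its relatives lay on either side: Trim30c was higher in replicate 2 (log2 ratio 0.47, adjusted p 1.69e-18), while Trim30a (-0.36, adjusted p 3.01e-112) and Trim30d (-0.08, adjusted p 0.00117) were lower by the same exact test. The index-based table gave 0.068 for Trim30d, the opposite sign. Trim14 was also higher in replicate 2, with a log2 ratio of 0.58 (adjusted p 2.82e-19, exact binomial test). Trim2 was the lowest, at -0.75 (adjusted p 0.000176, exact binomial test). Trim25 differed little, at 0.07 (adjusted p 0.000286, exact binomial test), and at -0.0033 with libraries scaled by their totals. Trim66 had the largest ratio, 1.37, but from 3 and 9 counts, with an adjusted p of 0.263 by the exact binomial test.

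**Figure D4:**
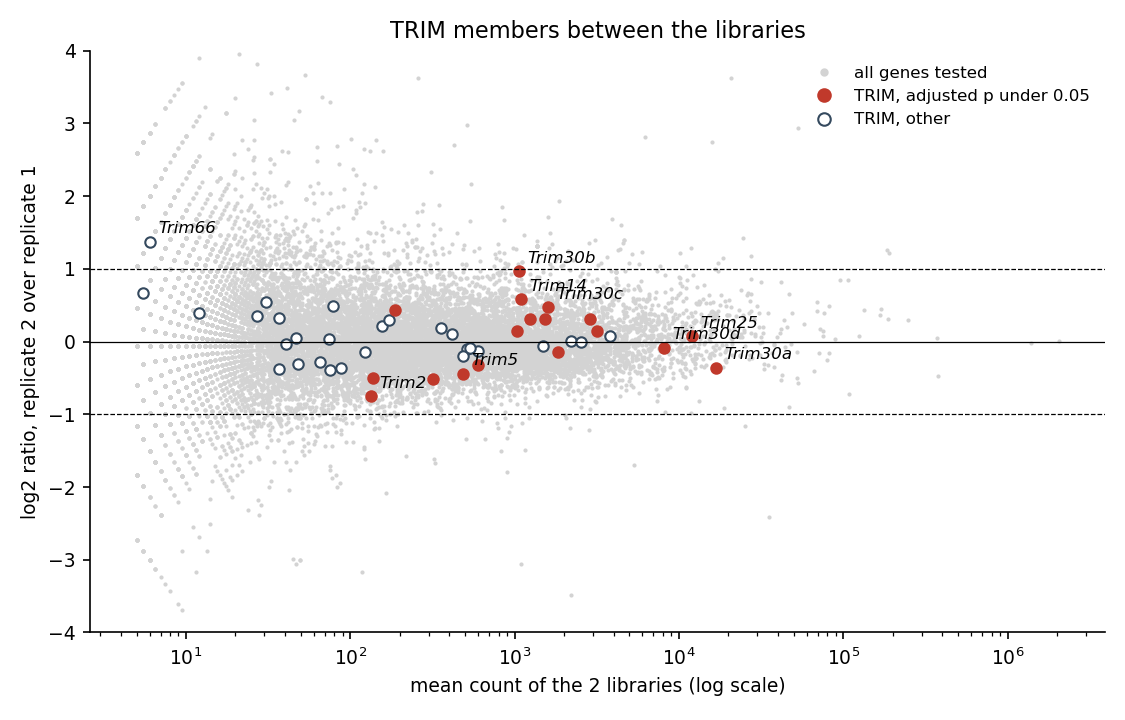
Log2 ratio of replicate 2 over replicate 1 against mean count on a log scale for all 16140 genes measured (grey; 97 lie beyond the shown range of 4 in either direction) and the 46 members, red where the adjusted p was under 0.05. All members but Trim66 lie within the dashed lines at a log2 ratio of 1, with Trim30b just inside the upper one.

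Other genes of the pathways in which TRIM proteins act were read beside them. Of 4 TRIM proteins named otherwise, 3 passed the 90 percentile: Pml, which builds nuclear bodies (40.0 and 59.2 TPM), Mefv, the inflammasome sensor pyrin (56.1 and 42.4 TPM), and Mid1 (19.0 and 39.4 TPM), while Mid2 was at 0. Mid1 was called between the libraries, with a log2 ratio of 1.13 and an adjusted p of 2.54e-138 by the exact binomial test. Of 10 genes of the RIG-I-like receptor pathway, which Trim25 serves, 8 passed the 90 percentile. The highest were Irf7, a transcription factor of interferon genes (211 and 467 TPM), and Ikbke, a kinase that activates interferon regulatory factors (228 and 369 TPM). Irf7 was the 1 gene of this list called between the libraries, with a log2 ratio of 1.14.

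The ubiquitin-conjugating enzymes that hand ubiquitin to TRIM ligases were all measured, and 4 of 10 passed the 90 percentile, led by Ube2d3 (88.9 and 79.5 TPM) and Ube2l6 (47.9 and 42.3 TPM), with 0 called. In the TAK1 complex, whose parts TAB2 and TAB3 are targets of Trim30a, Tab2 had 30.04 and 24.4 TPM and the kinase Map3k7 had 11.2 and 10.1 TPM. Trim30a thus exceeded all 4 genes of this list in level in both libraries, and Tab3, the lowest, had 1.80 and 2.08 TPM. None of these 4 genes or of the Trim28 partners was called.

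Nuclear RNA holds unspliced and partly spliced transcripts, and 15 members had an annotated retained-intron transcript and 100 or more counts in both libraries. The median share of such transcripts in the member's transcript TPM was 21.01% for the mean of the libraries, beside 21.4% over 5156 protein-coding genes chosen the same way. Taken per library, the members' median lay above that of the protein-coding genes, at 25.0% against 19.9% in replicate 1 and 25.4% against 22.8% in replicate 2. In the index-based table it was 37.0% against 27.4%. By the mean of the libraries the share was highest in Trim3 (57.3% and 55.5%), Trim28 (54.0% and 48.4%), Trim21 (47.4% and 52.3%), Trim24 (36.4% and 49.4%) and Trim30b (36.6% and 32.6%), and lowest in Trim30a (5.86% and 8.86%). Trim3 lay above the others in both libraries, while the ranges of Trim28, Trim21 and Trim24 overlapped one another, as did those of Trim24 and Trim30b. In Trim30b the retained-intron Trim30b-206 and the coding Trim30b-205, both 2771 bases long, had equal estimates (0.39 and 0.82 TPM each). The authors' estimate did not tell these transcripts apart, so the share of Trim30b is uncertain by TPM and by counts. In the index-based table it was 24.4%. At the low end, Trim37 (13.0% and 8.56%) was below Trim30a in replicate 2. In the index-based table Trim12a (16.4%) and Trim27 (17.6%) were lower than Trim30a (23.1%).

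Short transcripts weigh more in TPM than in counts, and the order changed with the measure. As a share of counts the median was 14.7%, against 11.2% over the protein-coding genes. Trim3 then had 19.6% and 20.4%, Trim28 17.7% and 13.3%, and Trim21 13.1% and 16.2%. Trim39 (41.4% and 45.3%), Trim12a (39.8% and 44.2%) and Trim26 (31.1% and 42.6%) had the highest mean share by counts, although Trim30b (34.5% and 31.0%) exceeded Trim26 in replicate 1. The first 3 were named after their values were seen. Trim30a stayed lowest, at 0.178% and 0.356%.

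**Figure D5:**
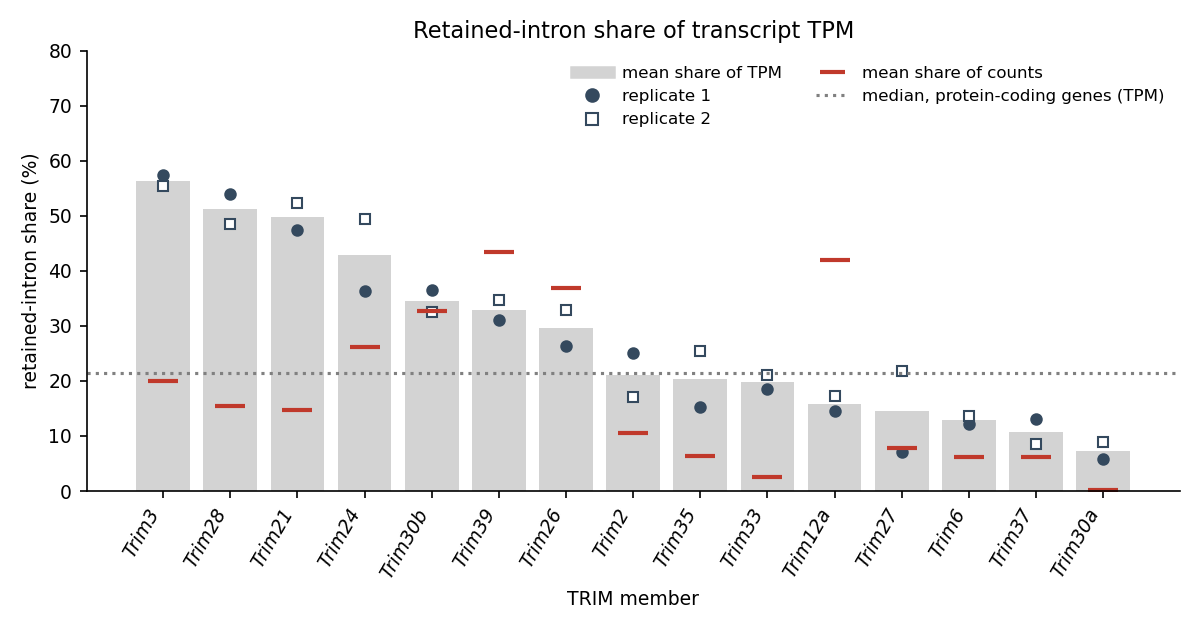
Percent of transcript TPM in retained-intron transcripts for 15 members (bars for means, points by replicate), with red dashes for the mean percent of counts; the dotted line is the median over protein-coding genes (21.4% of TPM). The red dashes lie far below the bars at Trim3, Trim28 and Trim21 and above them at Trim39, Trim26 and Trim12a.

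The transcript with the highest TPM was protein-coding in 42 of the 46 measured members. By counts, which give short transcripts less weight, it was protein-coding in 44, and the exceptions were Trim12a, led by the retained-intron Trim12a-205, and Trim26. By TPM the exceptions were the retained-intron transcripts Trim3-209 and Trim28-203 and the processed transcripts Trim12a-206 and Trim26-209. Trim26-209 held 24.1 and 19.5 TPM, or 44.9% of the mean level of Trim26, beside 14.3% in its highest coding transcript, Trim26-201. Trim12a-206 held 17.4 and 15.8 TPM beside 16.9 and 16.1 TPM for the coding Trim12a-203. In Trim30a, by contrast, the coding Trim30a-201 held 157 and 123 TPM, 91.8% of the mean level, and in Trim25 the coding Trim25-203 held 97.1%. Transcripts marked for nonsense-mediated decay were annotated in 5 of the members with 100 or more counts in both libraries. They made up a median of 2.71% of TPM for the mean of the libraries, against 4.43% over 2545 protein-coding genes chosen the same way. Taken per library, the medians were 3.93% against 3.93% in replicate 1 and 0% against 4.01% in replicate 2. In the index-based table the order turned, at 10.4% against 7.70%. By member the share was 3.93% and 5.56% in Trim39, 5.72% and 3.47% in Trim14 and 5.42% and 0% in Trim36. It was 1.18% and 0% in Trim33, and 0% in both libraries in Trim27.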

How the data were processed

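For each library the authors deposited 1 table of genes and 2 of transcripts, on the mm10 assembly with the GENCODE M21 annotation per the file headers. The deposited expected counts are the authors' estimates of reads per gene or transcript, with shared reads divided among features. They were rounded to whole numbers here. The deposited TPM is the authors' count per effective length, set to a fixed total per table, of which small RNAs took 73.9% and 71.5% and protein-coding genes 17.8% and 19.6%. The authors' bounds of TPM and posterior SDs (other values within a library) were not used for tests. No source used here names the aligner or the quantifier. The 26345 gene-level entries that name no annotated gene (0.144% and 0.0810% of counts) were left out of totals and tests.

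TMM scaling used edgeR 4.0.16 in R 4.3.3. Each gene at 10 or more counts over both libraries was compared by an exact binomial test, two-sided, with the scaled library shares as reference (scipy 1.17.1), with Benjamini-Hochberg adjustment over all such genes. A gene was called at an adjusted p under 0.05 and an absolute log2 ratio of at least 1, with 0.5 added to counts. With 1 library on each side there was no model with residual degrees of freedom. Intervals of a ratio are exact 95% intervals, for counting error only. Levels are means and SDs over 2 libraries. The median log2 level used log2(TPM + 0.1). Retained-intron and decay shares cover members at 100 or more counts in both libraries. Coding identity and 50-base words use the longest coding transcript of each gene.

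The members and lists were chosen with earlier results of these data known. Values are given for the 15 highest members, the 3 highest of each list, all members of the chromosome 7 block, the 5 highest retained-intron and decay shares, and, of each list of other genes, the 2 highest and every called gene. Others are named as extremes. Alternatives covered scaling (TMM, totals, DESeq2 1.42.0 size factors), count minimums, pseudocounts, the index-based transcript table, single libraries, the promoter window and the motif's spacer. The share by counts, the block's share and the interferon list's count were added after the data were seen.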

Additional observations from a re-analysis of the deposited data

How the results depend on the processing

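The index-based table gives other TPM for the same genes (median ratio to gene-level TPM 0.656 and 0.313 in replicates 1 and 2 for members, 0.671 and 0.316 for protein-coding genes), so levels compare only within a table. The median log2(TPM + 0.1) of the members was 1.91 (protein-coding genes 1.86). It was 0.49 (0.31) in the index-based table, 4.09 (4.05) with TPM rescaled to protein-coding genes, 2.22 (2.19) with a pseudocount of 1, and -0.14 (-1.62) with no count minimum, where 43 rather than 23 members exceeded the median of all protein-coding genes. Leaving out a library, it was 1.81 to 1.99, members above the 90 percentile numbered 6 to 9, those above the median 22 to 24, the block's share was 53.9 to 56.9%, and the median retained-intron share was 25.0 to 25.4%, against 21.01% for the mean of the libraries. That share was 37.0% in the index-based table and 14.7% by counts. The block's share was a mean of 51.4% of counts (49.6% in replicate 2) and 43.2% of TPM without Trim30a. Members detected numbered 31 to 52. A single member, Trim69, was called in the index-based table (1 of 56), against 9.26% of all genes. All genes called were 1073, but 743 and 196 by the edgeR exact test with a dispersion of 0.01 and 0.04, 2312 in the index-based table and 172 at 100 or more counts in both. Scaling by totals turned the log2 ratios of Trim25 (-0.0033), Trim12a (-0.066) and Trim26 (-0.0069), and the index-based table those of Trim30d (0.068), Trim35 (0.10) and Trim6 (0.24). The core stood in 5 promoters with the bases before the start alone and in 13 with a spacer of 1 to 3 bases (24.5%, against 9.91% of all genes). No paired analysis was possible because there was 1 group, and without either library there is no difference to test. Low counts limit members under 100 counts, of which 15 were measured and 0 had an adjusted p under 0.05.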
